A study of Mus musculus with 6 samples.

Results

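Glul encodes glutamine synthetase, the enzyme that joins glutamate and ammonia into glutamine. A further 4 genes encode carriers of glutamine and other neutral amino acids or, for Slc3a2, a carrier subunit: Slc1a5, Slc38a2, Slc7a5 and Slc3a2. These 5 genes were chosen by symbol from the 15796 genes listed for the MC3T3-E1 cell line, and all 5 were found and passed the filter on low values. RNA was sequenced from 6 libraries of MC3T3-E1, an established mouse line of pre-osteoblastic cells. In 3 libraries (overexpression 1 to 3) the cells carried a plasmid with Hsd11b1, whose product, 11β-HSD1, turns inert 11-keto steroids into active glucocorticoid. In the other 3 (control 1 to 3) the plasmid carried EGFP, and their genotype is labelled WT. Cells of both groups received 11-DHC (11-dehydrocorticosterone), an inert substrate of the enzyme, and no library without it was among the 6. The sources do not give its dose or duration, nor whether the libraries of a group came from separate cultures, so the p-values cover only the spread among these libraries, which may be technical.

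Cells take up glutamine mainly through sodium-coupled carriers and can then trade it outward for leucine and other large neutral amino acids. SLC1A5 (ASCT2) exchanges neutral amino acids with sodium, SLC38A2 (SNAT2) accumulates small neutral ones with sodium, and the light chain SLC7A5 (LAT1) pairs with the heavy chain SLC3A2 (CD98) to form the exchanger for large ones. Glul is a long-known glucocorticoid target in skeletal muscle, lung and other tissues. In osteoblasts, glutamine and its carriers have been tied to proliferation and matrix protein synthesis. The comparison of plasmids bears on the study's question of how the enzyme acts on bone formation and glucose handling under glucocorticoid excess.

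Glul, Slc3a2, Slc7a5 and Slc38a2 rose with Hsd11b1 overexpression, and Slc1a5 missed the threshold with a positive difference. Glul stood at 3.10 times its control level, Slc3a2 at 1.62 times, Slc7a5 at 1.38 times and Slc38a2 at 1.24 times, all as ratios of mean FPKM (fragments scaled to exon length and to library size). The test was limma on log2(FPKM + 1), with p-values adjusted over all 13120 genes whose mean FPKM reached 1 and a threshold of 0.05. Of these genes, 6.22% were higher and 5.84% lower with overexpression. In each of the 5 genes, all 3 overexpression libraries lay above all 3 control libraries, an arrangement found in 14.7% of the tested genes. The genes were named with results of these data already known, so the count of 4 in 5 is a description.

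The plasmid gene followed the labels, and osteoblast markers were present in part. Hsd11b1 had an FPKM of 323, 315 and 345 in overexpression 1 to 3, against 1.90, 0.404 and 0.275 in control 1 to 3. Approximate totals recovered from the FPKM ran from 16264238 to 58665341 reads, and overexpression 3 and control 2 were the deepest of their groups. Of 10 osteoblast markers, 8 were listed (Alpl and Bglap were not), with a summed FPKM of 2996 to 3106 in overexpression libraries and 3068 to 3390 in controls. Of the 7 tested, 3 rose (Runx2, Sparc and Dlx5; 42.9%, beside 6.22% of all genes tested) and 0 fell. Ibsp, under the filter, had 0.973 to 1.06 in overexpression libraries and 0.0243 to 0.208 in controls. Col1a1 (type I collagen) had 595 to 697 in overexpression libraries and 662 to 844 in controls (log2 difference -0.28, limma adjusted p = 0.175). Spp1 had 1029 to 1201 in overexpression libraries and 1234 to 1272 in controls (-0.14, limma adjusted p = 0.446). Col1a2 was also lower on average (-0.13, limma adjusted p = 0.434). The osteoblast factor gene Sp7 had 1.748 to 1.96 in overexpression libraries and 1.65 to 1.88 in controls. Of 7 adipocyte markers, 1 was listed, Fabp4, at 1.14 to 1.36 in overexpression libraries and 0.101 to 0.159 in controls. Skeletal muscle markers (1 of 7 listed) summed to 0.443 to 0.510 in overexpression libraries and 0.401 to 0.625 in controls. Endothelial markers (3 of 5 listed) summed to 0.540 to 0.639 and 0.418 to 0.452 in the same order, and macrophage markers (3 of 6) to 9.03 to 9.74 and 9.01 to 10.5. Chondrocyte markers (3 of 6) summed to 27.8 to 31.4 and 22.6 to 25.0, most of it Sox9, which rose by 0.37 on the log2 scale (limma adjusted p = 0.00754). Their part in the results on Glul and the carriers was not tested. In bulk RNA, a change in the number of cells of a type and a change in RNA per cell cannot be told apart.

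The sequences before the RefSeq start sites of Glul and Slc3a2 are shown because these genes had the largest differences of the 5. They are the 250 bases before the RefSeq start in build GRCm38.p6, read 5′ to 3′ on the gene's strand, for Glul at chr1:153899679-153899928 on the plus strand and for Slc3a2 at chr19:8713898-8714147 on the minus strand. The Slc3a2 window lies inside the gene's extent in GENCODE M21, downstream of that annotation's 5′ end of the gene. Capitals mark each CCAAT box (letters CCAAT) and GC box (letters GGGCGG), searched on both strands.
Glul: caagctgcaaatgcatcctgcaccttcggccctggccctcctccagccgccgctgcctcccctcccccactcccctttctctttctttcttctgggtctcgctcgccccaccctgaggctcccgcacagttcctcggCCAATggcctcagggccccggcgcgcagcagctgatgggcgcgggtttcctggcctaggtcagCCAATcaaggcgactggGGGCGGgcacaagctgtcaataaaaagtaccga
Slc3a2: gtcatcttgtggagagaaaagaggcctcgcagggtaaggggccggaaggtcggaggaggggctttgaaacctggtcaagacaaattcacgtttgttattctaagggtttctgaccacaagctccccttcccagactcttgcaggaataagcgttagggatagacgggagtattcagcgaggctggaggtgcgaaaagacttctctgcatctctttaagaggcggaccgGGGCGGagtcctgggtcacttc
RefSeq windows matched 3 of the 5 genes, those of Glul, Slc3a2 and Slc38a2. The Glul window held 2 CCAAT boxes, found in 33.8% of all 32851 windows of this length, and 1 GC box, found in 32.7%. The Slc3a2 window held 1 GC box and no CCAAT box. The core of the amino acid response element, TGATGNAA, occurred in 3.45% of all windows, and AGAACA, the hexamer repeated in the glucocorticoid response element, in 16.1%. Neither motif, on either strand, was among the letters of the Glul, Slc3a2 or Slc38a2 windows. Most windows lack these motifs, and sequence outside the 250 bases was not searched, so their absence here does not show that the genes lack such elements.

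Glul (ENSMUSG00000026473) lies on chromosome 1 from 153899944 to 153909723, plus strand, in GRCm38, with a union exon length of 3323 bases. It had an FPKM of 88.8, 94.9 and 90.5 in overexpression 1 to 3, against 28.8, 30.7 and 29.0 in control 1 to 3. The overexpression libraries were thus far above the controls, and libraries of the same group lay close together. The mean was 91.4 ± 3.14 with overexpression and 29.5 ± 1.02 in controls (SD, n = 3 each). The log2 difference, overexpression minus control, was 1.598 (SE 0.06, limma adjusted p = 2.88e-06), and it ranked 26 from the top among the 13120 genes. Its recovered reads numbered 5395, 5881 and 17648 with overexpression and 1909, 3564 and 1570 in controls. The count was lowest in control 3, where counting alone gives a relative error of 2.52%. In the authors' deposited table its log2 fold change is 1.63, with an adjusted p of 1.24e-106.

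Other annotated sequences near or like Glul could share its reads. Teddm2, on the opposite strand, shares 116 exonic bases with it and had 5.90 ± 0.357 with overexpression and 2.17 ± 0.250 in controls (SD, n = 3 each). The library kit keeps strand, but the sources do not give the strand setting of the counting, so reads of this overlap are uncertain. A pseudogene, Glns-ps1, matches 1126 bases of the longest Glul transcript at 96.8% identity, and AC134576.3 matches 1122 bases at 93.0%. The microRNA gene Mir8114 lies on the same strand and shares 93 exonic bases with Glul. These 3 were not listed. For Slc1a5, Slc38a2, Slc7a5 and Slc3a2, no other transcript in GENCODE M21 matched at 90% identity over 200 bases.

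**Figure D1:**
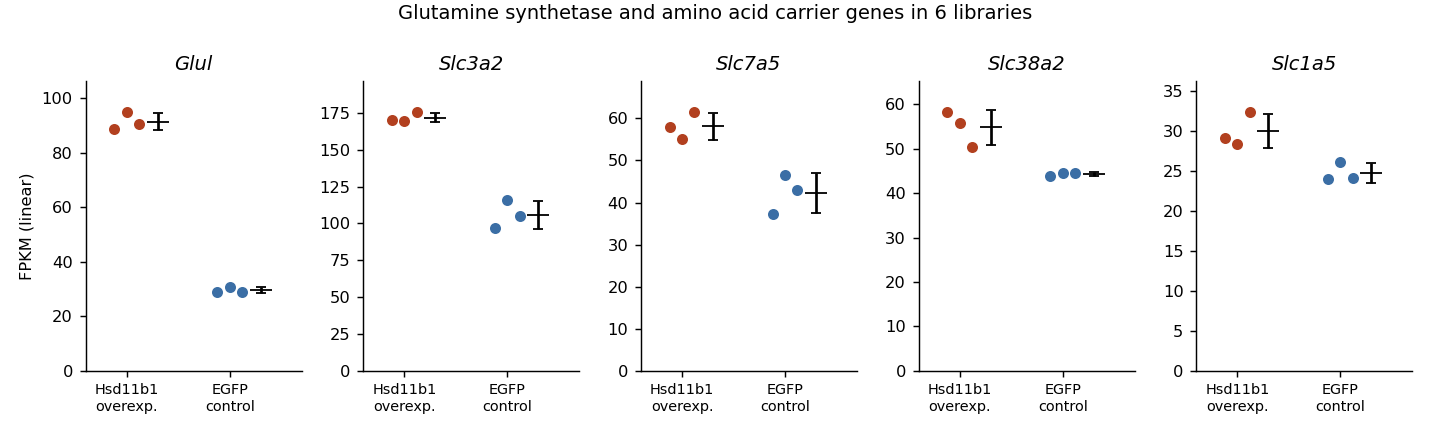
FPKM (linear axes from 0) of Glul, Slc3a2, Slc7a5, Slc38a2 and Slc1a5 in 3 Hsd11b1 overexpression libraries (left, red, replicates 1 to 3) and 3 EGFP control libraries (right, blue, replicates 1 to 3), with black marks for the mean ± SD. Glul shows the widest gap, at 91.4 against 29.5, and in every panel the lowest overexpression library is above the highest control.

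Slc3a2 (ENSMUSG00000010095, chromosome 19, 8706882 to 8723369, minus strand, GRCm38) encodes the heavy chain that carries LAT1 and related light chains to the cell surface. Its FPKM was 170, 170 and 176 in overexpression 1 to 3, against 97.0, 116 and 105 in control 1 to 3. The overexpression libraries differed little from each other (coefficient of variation 1.87%), while the controls varied more (8.95%), with control 1 the lowest. The mean was 171.9 ± 3.21 with overexpression and 106 ± 9.47 in controls (SD, n = 3 each). Its log2 difference came to 0.70 with SE 0.08 (limma adjusted p = 0.000964). It was the most abundant of the 5 genes per exon length in both groups, above 98.4% of tested genes with overexpression and 97.1% in controls.

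Slc7a5 (ENSMUSG00000040010, chromosome 8, 121881150 to 121907694, minus strand, GRCm38) encodes the light chain that does the transport. Its FPKM was 57.9, 55.1 and 61.5 in overexpression 1 to 3, against 37.2, 46.4 and 43.1 in control 1 to 3. The lowest overexpression library stood above the highest control, and control 1 was again the lowest of all. The mean was 58.2 ± 3.23 with overexpression and 42.2 ± 4.66 in controls (SD, n = 3 each). On the log2 scale it was higher by 0.46 (SE 0.09, limma adjusted p = 0.0128). Without control 1 it was 0.37 and without control 2 it was 0.53, and it passed the threshold in each of the 18 alternative settings.

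The heavy chain transcript had the larger difference of the pair. The ratio of Slc7a5 to Slc3a2 FPKM was 0.340, 0.324 and 0.350 in overexpression 1 to 3, against 0.384, 0.401 and 0.411 in control 1 to 3. The groups did not overlap in this ratio, which does not depend on the scaling of a library. Its log2 difference was -0.24, with p = 0.1 by an exact permutation test (two-sided), the lowest value possible among 20 assignments. Other light chain genes of the same heavy chain did not pass or were scarce. Slc7a6 (y+LAT2) had 11.1 to 11.5 in overexpression libraries and 10.3 to 11.0 in controls, with a log2 difference of 0.10 (SE 0.06, limma adjusted p = 0.399). Slc7a11, the cystine and glutamate exchanger xCT, had 0.567 to 0.738 with overexpression and 0.456 to 0.601 in controls, and Slc7a7 (y+LAT1) had 0.566 to 0.825 and 0.613 to 0.853 in the same order. Both were under the filter and were not tested. Slc7a5 held 82.1% ± 0.630 of the summed FPKM of the 4 listed light chains with overexpression and 78.1% ± 2.51 in controls (SD, n = 3 each). The heavy chain exceeded that sum 2.43-fold ± 0.0810 with overexpression and 1.96-fold ± 0.0476 in controls (SD, n = 3 each), a ratio of levels per exon length.

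**Figure D2:**
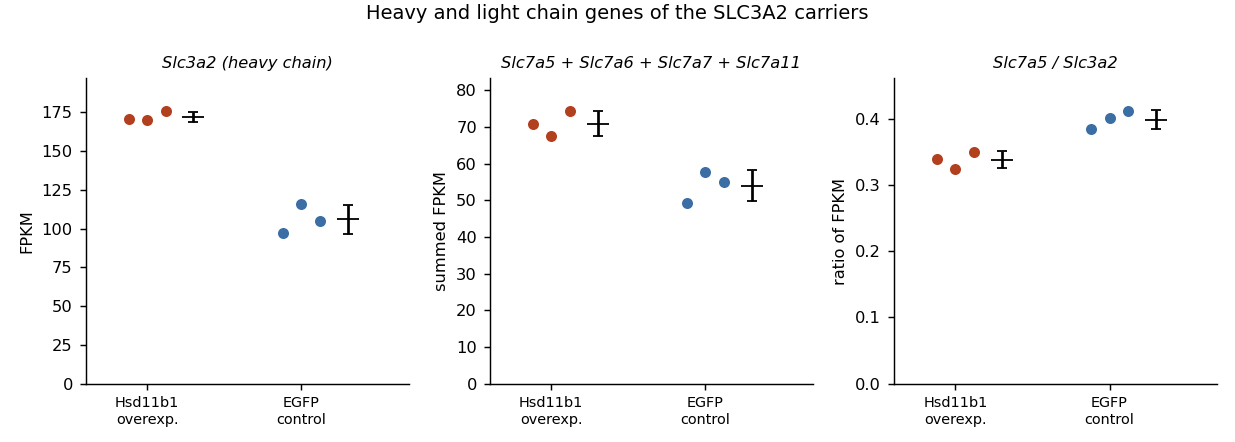
FPKM of the heavy chain gene Slc3a2 (left), summed FPKM of the light chain genes Slc7a5, Slc7a6, Slc7a7 and Slc7a11 (middle) and the ratio of Slc7a5 to Slc3a2 FPKM (right), per library, with linear axes from 0 and black marks for the mean ± SD. In each panel Hsd11b1 overexpression (red) is left and EGFP control (blue) right: both chains are higher with overexpression, and the ratio is lower, at 0.324 to 0.350 against 0.384 to 0.411.

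Slc38a2 (ENSMUSG00000022462, chromosome 15, 96687392 to 96699730, minus strand, GRCm38) encodes SNAT2, whose expression is known to adapt to amino acid supply. Its FPKM was 58.3, 55.8 and 50.5 in overexpression 1 to 3, against 43.9, 44.5 and 44.6 in control 1 to 3. The controls were nearly equal (coefficient of variation 0.912%), and overexpression 3, the deepest library, was the lowest of its group. The mean was 54.8 ± 3.99 with overexpression and 44.3 ± 0.404 in controls (SD, n = 3 each). By limma, the log2 difference was 0.30 with SE 0.07 and an adjusted p of 0.0272. The call ended when any library but overexpression 3 was left out, with an adjusted p of up to 0.117 (without overexpression 1).

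Slc1a5 (ENSMUSG00000001918, chromosome 7, 16781340 to 16798274, plus strand, GRCm38) encodes ASCT2. Its FPKM was 29.1, 28.4 and 32.4 in overexpression 1 to 3, against 24.0, 26.2 and 24.1 in control 1 to 3. The overexpression libraries were above the controls, with a narrow gap between overexpression 2 and control 2. The mean was 29.97 ± 2.101 with overexpression and 24.8 ± 1.23 in controls (SD, n = 3 each). The log2 difference of 0.26 (SE 0.07) had an unadjusted p of 0.00628 and did not pass (limma adjusted p = 0.0511), and it passed in 8 of 18 alternative settings. In the authors' deposited table it has a log2 fold change of 0.28 and an adjusted p of 0.0109, so all 5 genes are higher there, as are 6.74% of its 15796 genes, while 6.36% are lower.

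The 5 genes differ in GC content. The longest transcript is 44.7% G or C for Slc38a2, 49.2% for Glul, 53.4% for Slc3a2, 56.3% for Slc7a5 and 56.7% for Slc1a5. Slc1a5, Slc7a5 and Slc3a2 were highest in the deepest library of each group, whereas Slc38a2 was lowest in overexpression 3 and nearly level in controls, and Glul was highest in overexpression 2 and control 2. The part of depth in these differences was not tested. With the trend of each library on GC content removed, the log2 differences were 1.601 for Glul, 0.68 for Slc3a2, 0.44 for Slc7a5, 0.34 for Slc38a2 and 0.25 for Slc1a5. All 5 then passed, with limma adjusted p = 0.00418 for Slc38a2 and 0.00953 for Slc1a5. This setting was added after seeing the data, and more genes passed in it over all genes tested, 2457 against 1582 in the main fit.

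The order of levels per exon length differed between the groups in the place of Glul. With overexpression it ran Slc3a2 (171.9), Glul (91.4), Slc7a5 (58.2), Slc38a2 (54.8) and Slc1a5 (29.97), as mean FPKM. In controls it ran Slc3a2 (106), Slc38a2 (44.3), Slc7a5 (42.2), Glul (29.5) and Slc1a5 (24.8). Slc7a5 and Slc38a2 overlapped in both groups, and the other neighbours were separate over their 3 libraries. Among tested genes, Glul stood above 96.6% with overexpression and above 87.0% in controls.

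The size of the change was compared between members by log2 ratios within each library, over 10 pairs. The change of Glul exceeded that of Slc3a2 by 0.93, of Slc7a5 by 1.17, of Slc38a2 by 1.33 and of Slc1a5 by 1.36 on the log2 scale. The change of Slc3a2 in turn exceeded that of Slc38a2, with a difference for Slc38a2 minus Slc3a2 of -0.40, and that of Slc1a5, with a difference for Slc1a5 minus Slc3a2 of -0.43. In 8 of the 10 pairs the groups did not overlap and the exact two-sided permutation test gave its smallest value, p = 0.1 (0.125 after Benjamini-Hochberg adjustment over the pairs). The groups overlapped for Slc1a5 minus Slc38a2 (-0.03, p = 0.9 by the same exact test) and for Slc38a2 minus Slc7a5 (-0.16, p = 0.4).

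Genes with the most similar patterns were found for each of the 5. Likeness was the root-mean-square distance between log2(FPKM + 1) values centred on each gene's mean, over 6 libraries. It was taken to 7334 genes whose mean FPKM was 5 or more, without pseudogenes and predicted genes (Gm and Rik names). The nearest to Glul was Sgk1, a kinase that regulates ion and nutrient carriers, at a distance of 0.0498, with 102 in overexpression libraries and 32.2 in controls. Fam46b (0.0877), the MAP kinase phosphatase gene Dusp1 (0.0972) and Tsc22d3, which encodes GILZ (0.142), were also among the nearest. Slc3a2 was nearest to Zfp36, which encodes an mRNA decay factor (0.0219), Mxd4 and Mocs1. Slc7a5 was nearest to Them6 (0.0245), Acaa1a and Pgpep1, Slc38a2 to Serinc3 (0.0248), Sgcb and Aldh6a1, and Slc1a5 to Cuedc1 (0.0175), Ccdc9 and Axin1. The distances are descriptions over 6 libraries, and every gene with a similar group difference comes out as near.

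Among amino acid carriers as a group, 5 of 23 tested genes rose (21.7%, beside 6.22% of all genes tested), 3 fell (13%, beside 5.84%) and 15 did not pass. Of the 39 genes in this list, 12 were not listed, Slc38a1 and Slc7a8 among them, and 4 had a mean FPKM under 1. The median log2 difference was 0.11, beside -0.01 over all 13120 genes. Of the genes that rose, Slc3a2, Slc7a5 and Slc38a2 are members, chosen with earlier results of these data known. The share that rose therefore leans on them, while the 3 that fell are not members. Besides the members, Slc38a7, which encodes a lysosomal glutamine carrier, and Slc7a2, which encodes a carrier of arginine and lysine, rose. Slc38a7 had 8.602, 8.45 and 9.03 in overexpression 1 to 3, against 6.11, 6.66 and 6.59 in control 1 to 3 (log2 difference 0.38, SE 0.07, limma adjusted p = 0.0074). Slc7a2 had 7.94, 7.81 and 7.27 with overexpression, against 5.82, 4.89 and 5.71 in controls (0.42, SE 0.08, limma adjusted p = 0.0103). These calls held in all 18 alternatives.

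The carrier genes that fell were Slc6a6, Slc1a3 and Slc25a13. Slc6a6, the taurine carrier gene, had 32.4, 33.6 and 33.1 in overexpression 1 to 3, against 50.8, 52.2 and 55.3 in control 1 to 3 (log2 difference -0.66, SE 0.06, limma adjusted p = 0.000406). Slc1a3, a glutamate carrier of the same family as Slc1a5, had 2.19 to 2.56 with overexpression and 3.09 to 3.87 in controls (-0.40, SE 0.09, limma adjusted p = 0.0248). Its call ended without overexpression 1 or 3 or control 1 (adjusted p up to 0.0849). Slc25a13, the mitochondrial aspartate and glutamate carrier gene, had 9.71 to 10.5 and 12.04 to 12.8 in the same order (-0.27, SE 0.06, limma adjusted p = 0.0313), and no call remained once any 1 library was left out (up to 0.0948). Slc1a4, the closest paralog of Slc1a5, had 27.3 to 28.7 with overexpression and 23.4 to 25.4 in controls and did not pass (0.19, SE 0.06, limma adjusted p = 0.1002). The list also holds Slc6a8 and Slc43a3, which carry creatine and purine bases, and neither passed.

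**Figure D3:**
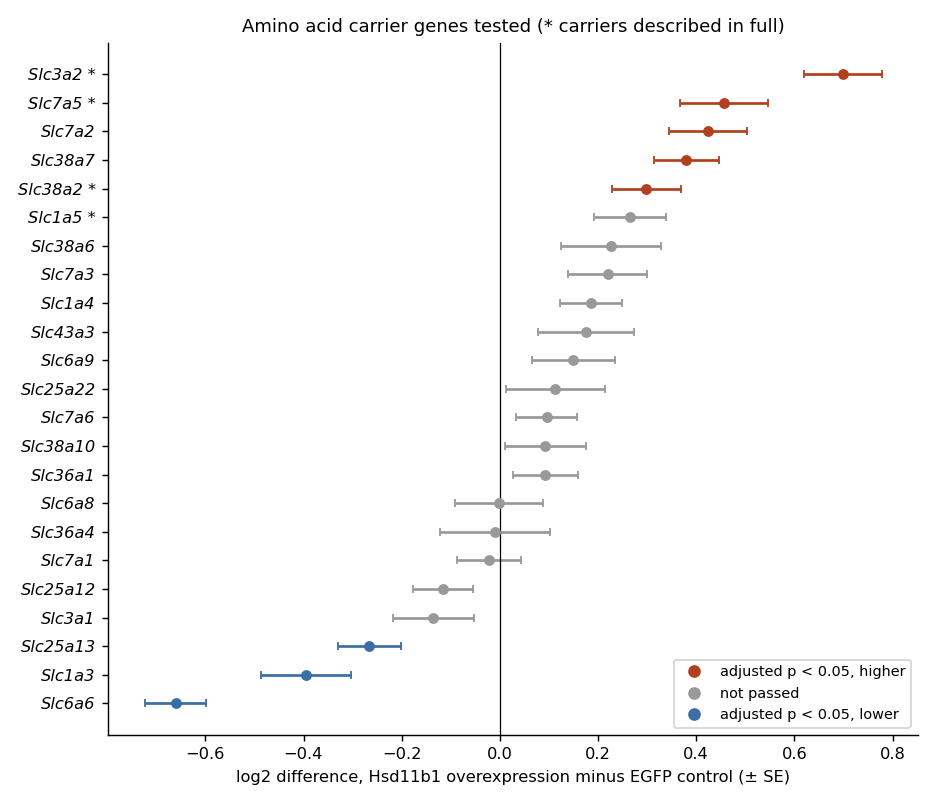
Log2 difference in FPKM, Hsd11b1 overexpression minus EGFP control, for the 23 tested amino acid carrier genes, with bars for the SE of the fit (n = 3 libraries each). Red points passed upward, blue points downward and grey points did not pass; Slc3a2 is at 0.70 at the top and Slc6a6 at -0.66 at the bottom, and stars mark the carriers described in full.

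Enzymes that make or use glutamine and glutamate mostly did not pass. Of 31 tested, 5 rose (16.1%, beside 6.22% of all genes tested), 0 fell (beside 5.84%) and 26 did not pass, with a median log2 difference of 0.04. Glul itself is 1 of the 5. At an unadjusted p under 0.05, 6 were higher and 4 lower. The share of all genes tested at that cut is not given here. It is at least the 12.1% that passed after adjustment in either direction. Gclc, the catalytic subunit of the enzyme that joins glutamate to cysteine in glutathione synthesis, had 101, 103 and 93.3 in overexpression 1 to 3, against 53.0, 46.7 and 49.6 in control 1 to 3. Its log2 difference was 0.98 (SE 0.07, limma adjusted p = 0.000128), while its modifier subunit gene Gclm had -0.08 (SE 0.07, limma adjusted p = 0.566). Bcat2, the mitochondrial aminotransferase of branched-chain amino acids, had 17.8, 17.9 and 19.6 with overexpression, against 11.9, 13.8 and 11.8 in controls (0.53, SE 0.08, limma adjusted p = 0.00352). Gfpt2, a glutamine-using enzyme of the hexosamine pathway, had 2.29 to 2.71 and 1.44 to 1.89 in the same order (0.42, SE 0.09, limma adjusted p = 0.0215). Aldh4a1, a proline catabolism enzyme that yields glutamate, had 3.93 to 4.42 and 2.74 to 3.17 (0.35, SE 0.08, limma adjusted p = 0.0226). Gfpt2 lost its call without overexpression 2 or 3 or control 1 or 2 (adjusted p up to 0.0898), and Aldh4a1 without overexpression 1 or 2 or control 1 or 3 (up to 0.102). Glud1, glutamate dehydrogenase, had 42.5 on average with overexpression and 44.0 in controls (-0.05, SE 0.06, limma adjusted p = 0.653).

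Genes of the amino acid response, the program that ATF4 switches on when amino acids run short, rose in part. Of 20 tested, 8 rose (40%, beside 6.22% of all genes tested), 0 fell (beside 5.84%) and 12 did not pass, with a median log2 difference of 0.20. At an unadjusted p under 0.05, 11 were higher and 0 lower, again without the share of all genes at that cut. These 8 include Slc3a2, Slc7a5 and Slc38a2, which the list shares with the members. The C/EBP factor gene Cebpb had 35.3, 36.1 and 45.9 in overexpression 1 to 3, against 14.6, 19.1 and 21.6 in control 1 to 3 (log2 difference 1.05, SE 0.15, limma adjusted p = 0.00251). The lipoprotein receptor gene Vldlr had 5.65, 5.37 and 5.02, against 2.80, 2.52 and 2.23 in controls (0.85, SE 0.08, limma adjusted p = 0.000497). Ppp1r15a, the phosphatase subunit that reverses the stress block on translation, rose by 0.46 (SE 0.08, limma adjusted p = 0.0072). Trib3 (0.44) and Nupr1 (0.25) also passed, and leaving out any 1 library ended the call of Nupr1 (adjusted p up to 0.16). Atf4 itself had 136, 140 and 147 with overexpression, against 152, 157 and 144 in controls (-0.10, SE 0.07, limma adjusted p = 0.437). The asparagine synthetase gene Asns, a classic target, had 58.0, 57.4 and 58.4 with overexpression, against 55.9, 53.7 and 50.4 in controls (0.12, SE 0.06, limma adjusted p = 0.299).

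The 20 cytosolic aminoacyl-tRNA synthetase genes encode enzymes that load amino acids onto tRNAs. Of these genes, 0 rose (beside 6.22% of all genes tested) and 0 fell (beside 5.84%). In a list of this size those shares amount to few genes. The median log2 difference of the list was 0.00046. At an unadjusted p under 0.05, 1 was higher and 0 lower, again without the share of all genes at that cut. By adjusted p, voom on recovered reads gave 0 in either direction, and the fit with the GC trend removed gave 1 higher. The gene with an unadjusted p under 0.05, Wars, was named after its values were seen and had 17.4 to 19.7 with overexpression and 15.9 to 16.6 in controls (0.17, SE 0.07, limma adjusted p = 0.146). Among 19 tested genes of amino acid sensing by mTORC1, the growth kinase complex that leucine activates, 1 rose (5.26%, near the 6.22% of all genes tested) and 0 fell, with a median of -0.0049. At an unadjusted p under 0.05, 2 were higher and 0 lower, again without the share of all genes at that cut. The gene that rose was Sesn1, a sestrin that restrains the complex, with 42.0, 40.0 and 36.3 in overexpression 1 to 3, against 20.7, 19.8 and 20.97 in control 1 to 3 (log2 difference 0.91, SE 0.07, limma adjusted p = 0.000164). Mtor had 5.03 to 5.74 with overexpression and 3.96 to 4.74 in controls (0.27, SE 0.08, limma adjusted p = 0.0691).

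**Figure D4:**
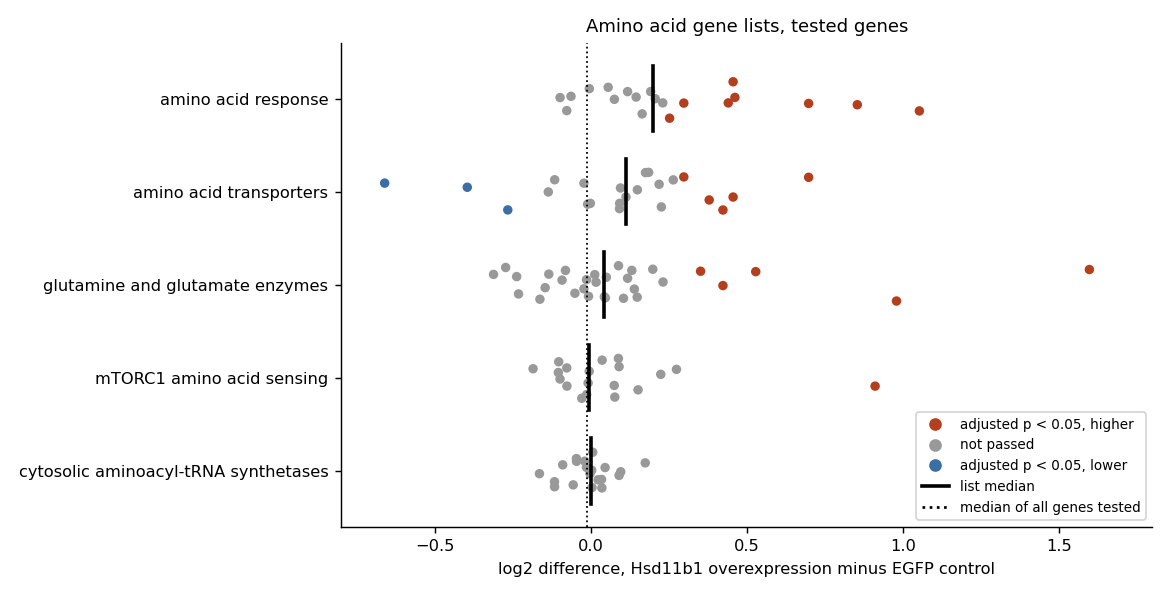
Log2 difference in FPKM, Hsd11b1 overexpression minus EGFP control, for each tested gene of 5 amino acid gene lists; points are spread vertically at random within a list, black bars are list medians and the dotted line is the median of all genes tested (-0.01). Red genes passed upward and blue downward; the amino acid response list has the highest median, at 0.20, and the tRNA synthetases lie close to 0 with none past the threshold.

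Across the processing alternatives the 5 genes kept their direction. Glul ran from 1.48 to 1.63, Slc3a2 from 0.64 to 0.76 and Slc7a5 from 0.37 to 0.53 on the log2 scale, and each passed in all 18. Slc38a2 ran from 0.25 to 0.36 and passed in 12. Slc1a5 ran from 0.21 to 0.30 and passed in 8, none of them among the 6 that left out 1 library.

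**Figure D5:**
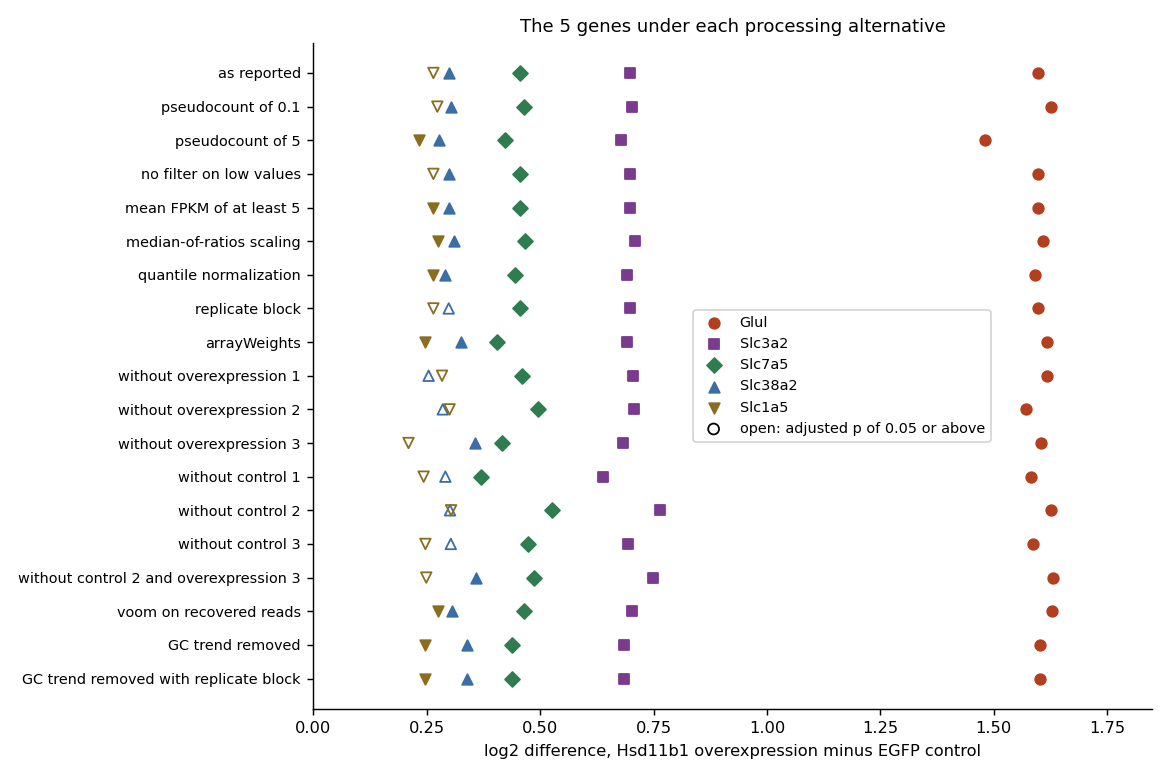
Log2 difference, Hsd11b1 overexpression minus EGFP control, of Glul, Slc3a2, Slc7a5, Slc38a2 and Slc1a5 as reported and under 18 alternatives; filled marks passed the adjusted threshold of 0.05 and open marks did not. Glul stays between 1.48 and 1.63 with filled marks throughout, and open marks occur for Slc38a2 and Slc1a5 alone.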

How the data were processed

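RNA of 6 MC3T3-E1 libraries was isolated with TRIzol and made into stranded mRNA libraries, per the labels' protocols. Tools listed in the submitters' processing notes are featureCounts 1.6.3, HISAT2 2.1.0 and cutadapt 2.5, with build mm10. The sources used here do not name the annotation release, the strand setting or the tool of the authors' test. The authors deposited FPKM per library, and their table also holds a log2 fold change, p-value and adjusted p-value per gene, quoted only where named. Replicates were not pooled.

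Differences were tested two-sided by limma-trend (limma 3.58.1, R 4.3.3) on log2(FPKM + 1) for 13120 genes whose mean FPKM reached 1. No covariate entered the fit of 3 overexpression and 3 control libraries, with Benjamini-Hochberg adjustment across the tested genes. Adding 1 makes differences of low genes smaller. SE is that of the fit and SD that of FPKM over 3 libraries. Read totals were recovered as the numbers that make FPKM times exon length (GENCODE M21, GRCm38) whole. Of values at or below 1000 reads, 93.7% to 94.9% were whole within 0.05. In each library the reads so given to listed genes summed to more than the total (overexpression 3: 61179000 against 58665341). The totals are therefore approximate, and the reason was not tested. Reads of Slc38a2 were up to 0.429 from whole and are not printed. Both procedures were also run on simulated data without a trend on GC content, and the outcomes are not given here.

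The 5 genes, the lists and the rule for naming were chosen with earlier results of these data known. The rule takes the 5 genes, all passing genes of a list where 6 or fewer passed and otherwise the 4 with the smallest p in each direction and the 2 with the highest FPKM, and the nearest genes by likeness; some genes it names are not reported here. Slc6a8, Slc43a3, Glud1, Gclm, Asns, Slc1a4, Slc7a6, Slc7a7, Slc7a11, Trib3, Nupr1, Mtor and Wars were named after their values were seen. Alternatives covered pseudocounts, filters, scaling, a replicate block, weights and libraries left out. Voom on recovered reads and removal of the GC trend were added after seeing the data.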

Additional observations from a re-analysis of the deposited data

How the results depend on the processing

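All 18 alternatives kept the direction of the 5 genes, and Glul, Slc3a2 and Slc7a5 passed in each. Slc1a5 passed with a pseudocount of 5 (0.23), quantile normalization (0.26), a filter at a mean FPKM of 5 (0.26), arrayWeights (0.25), median-of-ratios scaling (0.27), voom on recovered reads (0.27), the GC trend removed (0.25) and the GC trend removed with the replicate block (0.25). With 1 library left out, Slc38a2 ran from 0.25 to 0.36, the higher genes from 483 to 719 and the lower genes from 412 to 618. Carriers that fell then numbered 1 to 2, glutamine and glutamate enzymes that rose 3 to 4 and those that fell 0 to 1. Without control 2 and overexpression 3, 478 genes were lower, 1 carrier fell and 3 of those enzymes rose, also 3 with the filter at 5. With arrayWeights, 1357 genes were higher and 1403 lower, 8 carriers and 2 mTORC1 genes rose, and 2 enzymes fell. Voom gave 2 enzymes lower and 2 mTORC1 genes higher. With the GC trend removed, 1298 genes were higher and 1159 lower, 1 enzyme fell and 1 tRNA synthetase rose, and with the block as well 1 enzyme fell. The causes of these changes were not tested. The log2 ratio of Slc7a5 to Slc3a2 ran from -0.26 to -0.21 over its 8 alternatives.

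Deviations of libraries with the same replicate number in the titles correlated at 0.208, -0.294 and -0.0269 across genes. Only overexpression 1 correlated best with its own number (0.208 with control 1). Overexpression 2 and control 1 correlated best with each other (0.216), and control 3 with overexpression 2 (0.063). The highest correlation, 0.4175, joined overexpression 3 and control 2, the deepest of their groups. With so few libraries that differ in depth, these values cannot decide whether the numbers pair the libraries. With the replicate block 1316 genes passed, against 1582 without it, and Slc38a2 (0.30) had an adjusted p of 0.0609. Of the 4 genes with whole recovered reads, the fewest in a library were 1570, for Glul, with a counting error of 2.52% beside a coefficient of variation of 3.45% between control libraries. For Slc38a2 the control libraries varied by 0.912%, less than the counting error of 1.25% that its approximate reads give.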

Other observations

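Of the genes in the enzyme list that spend glutamine nitrogen on purines and pyrimidines, Ppat, Pfas, Gmps, Ctps and Cad had negative log2 differences and Ctps2 a positive one (0.20, limma adjusted p = 0.147). None of them passed the threshold. Ppat, the first enzyme of purine synthesis, had an FPKM of 5.27, 4.24 and 4.88 in overexpression 1 to 3, against 5.93, 6.11 and 5.91 in control 1 to 3 (-0.27, SE 0.08, limma adjusted p = 0.067). Pfas had 4.38, 3.90 and 5.16, against 5.51, 5.75 and 6.05 in controls (-0.31, SE 0.09, limma adjusted p = 0.0686). Gmps (-0.23, limma adjusted p = 0.119) and Ctps (-0.13, limma adjusted p = 0.27) were also lower in all 3 overexpression libraries than in any control, as 16.1% of tested genes were. Cad, which starts pyrimidine synthesis, overlapped between groups (-0.15, limma adjusted p = 0.417). These genes were picked after their values were seen.

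The subunit genes of glutamate-cysteine ligase were set side by side. The ratio of Gclc to Gclm FPKM was 12.2, 13.1 and 13.0 in overexpression 1 to 3, against 6.10, 5.65 and 6.32 in control 1 to 3. This pair was also picked after its values were seen, so no test is given.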
